A study of Mus musculus with 36 samples.

Results

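The oogenesins Oog1, Oog2, Oog3 and Oog4 and the related genes Pramel6 and Pramel7 were chosen by name, and 5 of the 6 were rows of a table of 23845 genes. Oog1 was not analysed here. The study, whose title concerns LINE-1 retrotransposons and chromatin after fertilisation, sequenced RNA from 36 pools of 4 to 5 mouse embryos. The 8-cell libraries comprised 7 of embryos labelled VP64, 6 labelled Ctrl and 6 labelled NI. The 2-cell libraries comprised 6 labelled KRAB, 7 labelled Ctrl and 4 labelled NI. VP64 is the name of a synthetic transcriptional activation domain and KRAB that of a natural repression domain. The labels say that embryos were injected, but not what the Ctrl embryos received, what NI abbreviates, or which strain was used.

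The encoded proteins belong to the PRAME family, whose members fold into a curved stack of leucine-rich repeats and bind other proteins through it. Oogenesins were described in mouse oocytes and early embryos, where OOG1 binds RALGDS, an exchange factor that loads Ral GTPases with GTP. Pramel6 and Pramel7 are known from the mouse morula and inner cell mass. In mouse embryonic stem cells PRAMEL7 works with a ubiquitin ligase built on CUL2 that marks UHRF1, a cofactor of maintenance DNA methylation, for destruction, and its gene responds to the cytokine LIF through STAT3.

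All 3 measured oogenesins lie in 1 cluster of chromosome 4 (GENCODE vM21 on GRCm38). Oog4 is at chr4:143437164-143450324 on the minus strand, Oog3 at chr4:144157557-144162663 on the minus strand and Oog2 at chr4:144190719-144196934 on the plus strand. Oog2 and Oog3 are neighbours 28.055 kb apart, whereas 10 other PRAME family rows separate Oog3 and Oog4. Pramel6 (chr2:87506565-87510872, plus strand) and Pramel7 (chr2:87489087-87497093, minus strand) are 9.471 kb apart on chromosome 2. The coding sequences of Oog2 and Oog3 were 80.9% identical over their aligned bases, and Oog4 was 75% and 75.8% identical to them. Pramel6 and Pramel7, although neighbours, were 63.3% identical, and Pramel6 was 67.8% to 67.9% identical to the 3 oogenesins.

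The stretch from 130 bases before to 20 bases after each RefSeq transcription start (GRCm38.p6) is shown, since the 3 oogenesins resembled each other there and moved together in the data. Each reads 5′ to 3′ on the strand of its gene, with capitals for an E-box (CANNTG), a TATA box (TATAAA) or the element bound by NOBOX, an oocyte homeodomain factor (TAATTG or its reverse complement).
Oog2: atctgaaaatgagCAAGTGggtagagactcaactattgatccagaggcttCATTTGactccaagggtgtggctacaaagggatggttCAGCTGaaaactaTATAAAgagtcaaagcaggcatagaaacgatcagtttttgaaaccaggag
Oog3: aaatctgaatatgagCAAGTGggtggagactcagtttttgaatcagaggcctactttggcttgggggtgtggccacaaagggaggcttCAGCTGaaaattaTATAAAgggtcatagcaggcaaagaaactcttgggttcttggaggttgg
Oog4: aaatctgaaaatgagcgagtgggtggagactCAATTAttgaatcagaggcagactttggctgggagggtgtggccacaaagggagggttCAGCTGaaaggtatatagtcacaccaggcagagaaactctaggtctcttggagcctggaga
Pramel6: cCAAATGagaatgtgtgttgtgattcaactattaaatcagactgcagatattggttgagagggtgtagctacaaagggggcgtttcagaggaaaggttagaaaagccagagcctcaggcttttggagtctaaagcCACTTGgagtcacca
Pramel7: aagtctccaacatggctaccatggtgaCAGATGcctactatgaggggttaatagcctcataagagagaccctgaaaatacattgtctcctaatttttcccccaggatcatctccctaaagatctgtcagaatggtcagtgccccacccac
The stretches are chr4:144190587-144190736 for Oog2, chr4:144162632-144162781 for Oog3, chr4:143450305-143450454 for Oog4, chr2:87506435-87506584 for Pramel6 and chr2:87492399-87492548 for Pramel7. The Pramel7 window starts inside the gene as GENCODE draws it. Over the whole RefSeq windows, from 250 bases before to 50 after the start, the oogenesin promoters were 77.0% (Oog2 and Oog3), 79.3% (Oog2 and Oog4) and 80.6% (Oog3 and Oog4) identical, against 63.7% for Pramel6 and Pramel7.

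One E-box of the form CAGCTG sat at almost the same place in the 3 measured oogenesins, with its first base at -43 in Oog2, -42 in Oog3 and -41 in Oog4. In the promoter of Oog1, CAGCTG started at -19. These positions are counted from the RefSeq starts. GENCODE starts Oog1 farther downstream and Oog3 farther upstream, so the offsets between the genes depend on the annotation. A TATA box followed at -30 in Oog2 and -29 in Oog3. A NOBOX element lay at -239 in Oog3 and -99 in Oog4. These letters are not rare. Searched on both strands, CANNTG was in 72.3% of 32851 mouse promoters of the same length, TATAAA in 13.6%, TAATTG in 8.0% and CAGCTG, which is one form of CANNTG, in 16.3%. CAGCTG starting between -60 and -20, a range set after the positions in the oogenesins were seen, was in 2.5% of them. The oogenesin promoters resemble each other, so their sites are not independent of each other, and the share is a description only. The STAT element TTCNNNGAA was in 8.3% of all promoters and was not found in these 5 windows.

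The oogenesins and the Pramel pair were at opposite ends of the time course. Each of Oog2, Oog3 and Oog4 was higher in every 2-cell library than in any 8-cell library. Pramel6 was higher in every 8-cell library than in any 2-cell library. How many of all genes separate the stages in this way was not counted. Of 13158 genes tested with edgeR, 6562 in NI and 8092 in Ctrl were called between the stages. Pramel7 was also high at the 8-cell stage but varied widely among 2-cell libraries. No member passed the test in any comparison between embryos labelled VP64, KRAB, Ctrl and NI at 1 stage.

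**Figure D1:**
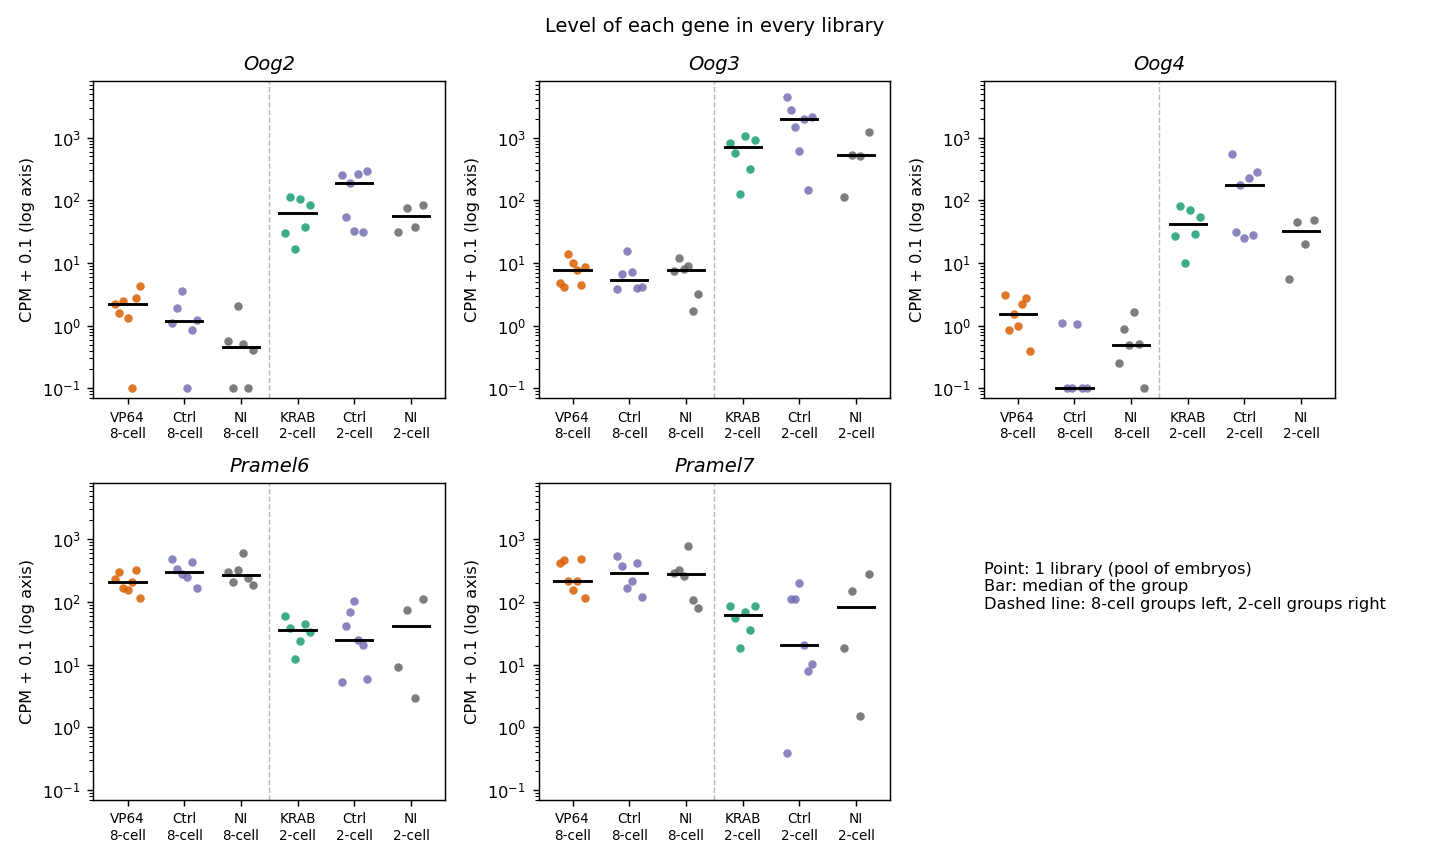
Level of each gene in CPM (plus 0.1, log axis) in each of the 36 libraries, by group, with the group median as a bar. Oog2, Oog3 and Oog4 fill separate ranges at the 8-cell and the 2-cell stage, Pramel6 does so in the other direction, and Pramel7 overlaps between the stages.

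Levels are given as CPM (counts scaled to library size), a gene's counts relative to the TMM-scaled total of its library. Total counts ran from 1043740 to 13583527 per library, and no pair of libraries of 1 group agreed within counting noise. The labels name no separate animals or cultures, and p-values therefore speak only to variation from pool to pool, part of which may be technical. As a check of the stage labels, 9 of 10 oocyte markers fell and 9 of 11 markers of 8-cell embryos and first lineages rose at the 8-cell stage, in NI as in Ctrl. Of 12 markers of the 2-cell embryo, 10 fell in NI, and in Ctrl 9 fell and 3 rose. Among all genes 31.4% were called lower in NI and 39% in Ctrl, and 18.5% and 22.5% higher. Summed CPM of the oocyte list did not overlap between 8-cell and 2-cell libraries (44.7 to 778 against 4791 to 45470), whereas that of the 8-cell list did (1607 to 4742 against 142.9 to 3813). Summed CPM of the 2-cell list also overlapped, at 692.5 to 2700 in 8-cell and 960.0 to 3412 in 2-cell libraries. Sums of 15 cumulus and granulosa markers ran from 8.86 to 401.7 CPM and from 25.2 to 523.3 CPM, and those of 10 sperm markers from 0.899 to 22.6 CPM and from 28.5 to 328.8 CPM, (8-cell first in each pair). Of the 15 cumulus and granulosa markers, 2 had 0 counts in each group of 2-cell libraries, Amh, a granulosa hormone, among them. Of the 10 sperm markers, 4 had 0 counts in KRAB, 3 in Ctrl and 5 in NI 2-cell libraries. Smcp, a sperm mitochondrial protein, was among these and had 0 counts in all 6 groups. The other markers of both lists had counts in these 2-cell groups.

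Oog3 was the most abundant oogenesin. At the 8-cell stage it had a lowest, median and highest level of 4.05, 7.52 and 13.8 CPM in VP64, 3.72, 5.29 and 15.3 CPM in Ctrl, and 1.61, 7.58 and 11.8 CPM in NI. At the 2-cell stage these values were 125.2, 696.6 and 1066 CPM in KRAB and 145.2, 1979 and 4509 CPM in Ctrl. The 4 NI 2-cell libraries had 114.5, 508.3, 535.2 and 1211 CPM. Every 2-cell library was above every 8-cell library, while within a stage all neighbouring groups overlapped. In edgeR's quasi-likelihood test of 8-cell against 2-cell embryos the log2 fold change was -6.45 ± 0.75 (SE) in NI (adjusted p = 1.6e-08) and -8.14 ± 0.79 in Ctrl (adjusted p = 1.68e-10). In pooled embryos, fewer contributing cells and less of a transcript per cell cannot be told apart.

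Oog2 is the neighbour of Oog3. Its lowest, median and highest levels at the 8-cell stage were 0, 2.10 and 4.19 CPM in VP64, 0, 1.08 and 3.52 CPM in Ctrl, and 0, 0.357 and 1.98 CPM in NI. At the 2-cell stage they were 16.9, 61.5 and 111.6 CPM in KRAB and 31.4, 188.3 and 294.7 CPM in Ctrl, and the 4 NI libraries had 30.8, 37.4, 74.8 and 82.7 CPM. The stages did not overlap, although the 8-cell levels rest on few reads, with 49 counts over the 7 VP64 libraries, 35 over the 6 Ctrl and 20 over the 6 NI libraries. The log2 fold change of 8-cell against 2-cell embryos was -6.47 ± 0.86 in NI (adjusted p = 1.61e-07) and -6.79 ± 0.82 in Ctrl (adjusted p = 9.6e-09). Gm13084 is a row of the same cluster, and 47.54% of its 31-base words, the smaller set of the 2, also occur in Oog2. With Oog2 and Gm13084 summed into 1, the changes were -6.05 in NI and -7.92 in Ctrl.

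Oog4 lies farther off in the cluster and was, like Oog2, near 0 at the 8-cell stage. It had 0.300, 1.43 and 2.96 CPM (lowest, median, highest) in VP64, 0, 0 and 1.02 CPM in Ctrl, where 4 of the 6 libraries had 0 counts, and 0, 0.400 and 1.57 CPM in NI. In 2-cell embryos it had 10.04, 41.3 and 80.8 CPM in KRAB and 25.2, 176.4 and 540.0 CPM in Ctrl, and the NI libraries had 5.54, 20.1, 45.6 and 48.5 CPM. The 8-cell and 2-cell ranges were again separate, and the highest 8-cell value, 2.96 CPM, was close to the lowest 2-cell value, 5.54 CPM. The log2 fold change was -5.54 ± 0.89 in NI (adjusted p = 3.64e-06) and -9.01 ± 1.003 in Ctrl (adjusted p = 1.83e-09). Where a library had 0 counts, 3 counts set the upper limit, which was 0.459 to 1.79 CPM for Oog4 and 0.626 to 2.36 CPM for Oog2, for counting error only.

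Per kilobase of exon, the order among the oogenesins was steep. In Ctrl 2-cell embryos the median level was 1061 CPM per kb for Oog3, 89.0 for Oog4 and 75.9 for Oog2. Pramel7 and Pramel6 stood at 9.45 and 11.8 CPM per kb in the same libraries, and at 138 and 146 CPM per kb in Ctrl 8-cell embryos. Together the 3 oogenesins took a median of 0.000643% of all counts in Ctrl 8-cell libraries and 0.224% in Ctrl 2-cell libraries.

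Pramel6 moved the other way. Its lowest, median and highest levels at the 8-cell stage were 114.4, 210.2 and 323.3 CPM in VP64, 167.5, 303.4 and 485.4 CPM in Ctrl, and 187.5, 272.0 and 606.4 CPM in NI. At the 2-cell stage they were 12.0, 35.3 and 59.2 CPM in KRAB and 5.14, 24.5 and 105.0 CPM in Ctrl, and the NI libraries had 2.88, 9.23, 74.4 and 113.0 CPM. The lowest 8-cell library, at 114.4 CPM, was just above the highest 2-cell library, at 113.0 CPM, so the stages did not overlap. The gene was higher at the 8-cell stage by a log2 fold change of 2.62 ± 0.73 in NI (adjusted p = 0.00317) and 3.06 ± 0.60 in Ctrl (adjusted p = 3.83e-05).

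Pramel7, which encodes the UHRF1-directed ligase adaptor, reached 117.4, 218.8 and 479.3 CPM (lowest, median, highest) in VP64, 121.2, 295.4 and 551.0 CPM in Ctrl, and 78.8, 276.2 and 769.3 CPM in NI 8-cell embryos. Its 2-cell levels were 18.5, 62.1 and 87.0 CPM in KRAB and 0.285, 20.2 and 200.7 CPM in Ctrl, where the lowest library held 1 read. The NI 2-cell libraries had 1.44, 18.5, 147.3 and 277.7 CPM. Of the 17 2-cell libraries, 7 lay above the lowest 8-cell library. The difference between the stages passed the test in Ctrl, with a log2 fold change of 2.23 ± 0.78 (adjusted p = 0.0127), and missed it in NI at 1.45 ± 0.92 (95% interval -0.42 to 3.31, adjusted p = 0.189). Leaving out NI 2-cell replicate 4, the highest of its group, gave 2.35 (adjusted p = 0.0673), and leaving out NI 8-cell replicate 4, also the highest, gave 0.82 (adjusted p = 0.475).

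Among all 13158 genes tested by edgeR, 18.5% were called higher and 31.4% lower at the 8-cell stage in NI, and 22.5% higher and 39% lower in Ctrl. Of the 5 members, the 3 oogenesins fell in each group, while Pramel6 rose in NI and both Pramel genes rose in Ctrl. The median log2 fold change of the members was -5.54 in NI and -6.79 in Ctrl, beside -0.47 and -0.51 over all genes. Oog3 ranked 89th by p in NI and 40th in Ctrl. The 2 stage contrasts use separate libraries, but the difference between them was called by edgeR for 0% of all genes and for no member, with 2680 of 13158 genes at an unadjusted p under 0.05. Oog4 had the largest difference of the members, -3.47 ± 1.25 for the stage change in Ctrl minus that in NI (edgeR, unadjusted p = 0.00847, adjusted p = 0.123). This value was -2.44 without NI 8-cell replicate 4, -4.05 without Ctrl 8-cell replicate 1 and -4.21 without Ctrl 8-cell replicate 4. DESeq2 called 659 genes and no member in this contrast. limma-voom with quality weights called Oog3 (adjusted p = 0.0417) and Oog4 (adjusted p = 0.0279), among 27.4% of all genes.

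**Figure D2:**
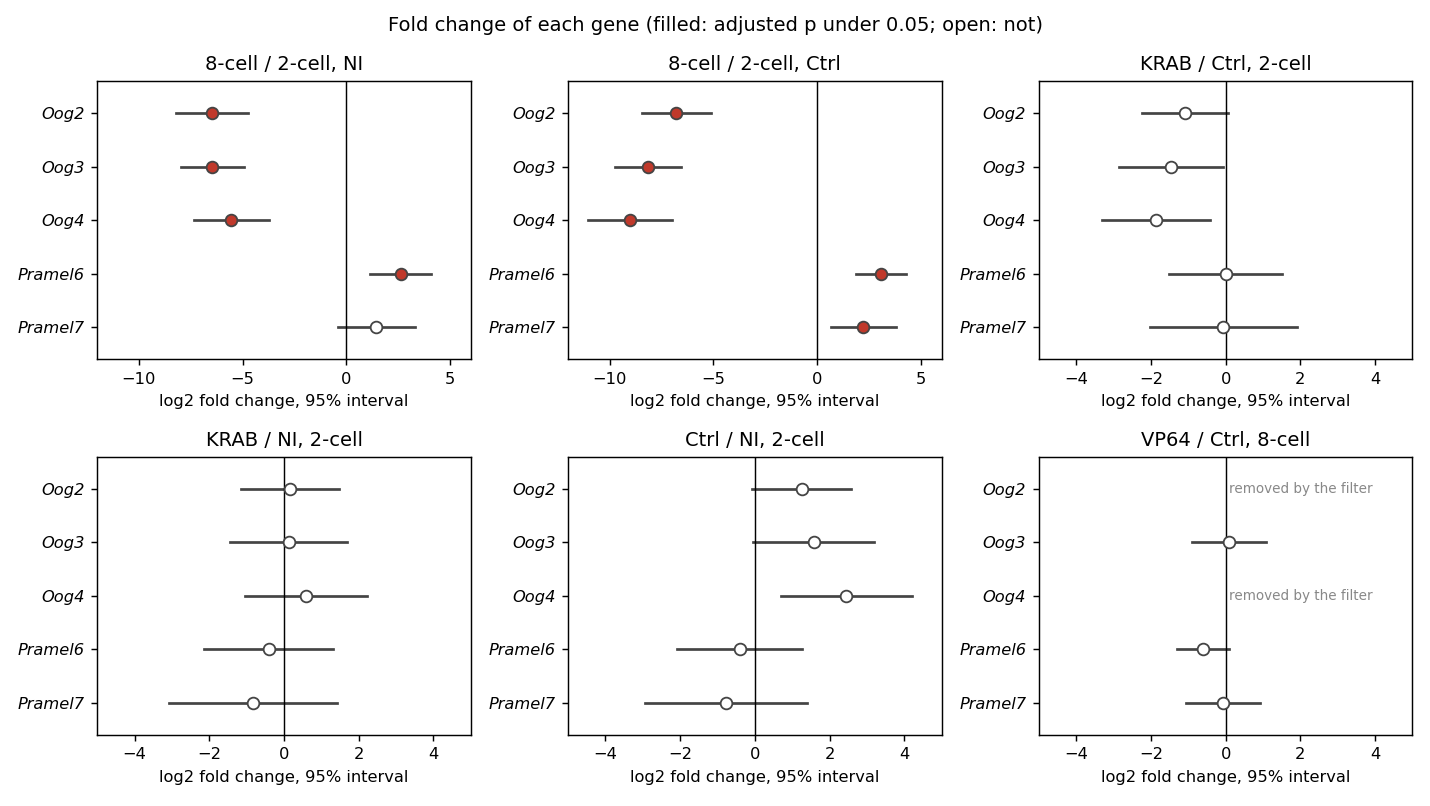
The log2 fold change of each gene with its 95% interval from edgeR in 6 comparisons, filled where the adjusted p was under 0.05. The oogenesins are far below 0 between the stages and the Pramel pair above it, and all treatment comparisons are open symbols.

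Embryos labelled KRAB were set against Ctrl and NI embryos at the 2-cell stage. Oog2 averaged 64.6 ± 41.3 CPM (SD, n = 6) in KRAB, 159 ± 116 CPM (n = 7) in Ctrl and 56.4 ± 26.1 CPM (n = 4) in NI. Oog3 averaged 635 ± 362 CPM in KRAB, 1946 ± 1449 CPM in Ctrl and 592 ± 455 CPM in NI, and Oog4 averaged 45.0 ± 27.4, 187 ± 187 and 29.9 ± 20.7 CPM in the same groups. The Ctrl mean was the highest for each oogenesin, and the ranges of all 3 groups overlapped. The log2 fold change of KRAB against Ctrl was -1.09 ± 0.55 for Oog2 (adjusted p = 0.34), -1.45 ± 0.67 for Oog3 (adjusted p = 0.306) and -1.87 ± 0.70 for Oog4 (adjusted p = 0.241). None was called. Without Ctrl 2-cell replicate 1, which had the highest Oog4, the change of Oog4 was -1.23 and was not called either. edgeR called 0 of 11799 genes in this comparison, or 0%, with 1838 genes, Oog3 and Oog4 among them, at an unadjusted p under 0.05. DESeq2 called 228 genes and no member. limma-voom with quality weights called Oog2 (adjusted p = 0.0227) and Oog4 (adjusted p = 0.00903) among 5252 genes, 44.5% of those tested.

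Against NI, fold changes in KRAB were close to 0 with wide intervals. The log2 fold changes were 0.16 ± 0.63 for Oog2, 0.12 ± 0.75 for Oog3 and 0.58 ± 0.79 for Oog4, with 95% intervals from -1.15 to 1.48, -1.45 to 1.69 and -1.06 to 2.23 (adjusted p = 0.998 each). Of all genes 0% were called by edgeR, and 368 had an unadjusted p under 0.05. DESeq2 and limma-voom called 0 genes too.

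The log2 fold change of Ctrl against NI embryos at 2 cells was 1.25 ± 0.64 for Oog2 (adjusted p = 0.239), 1.57 ± 0.78 for Oog3 (adjusted p = 0.227) and 2.45 ± 0.84 for Oog4 (adjusted p = 0.133). edgeR called none of the members and 0% of all genes, with 2756 genes at an unadjusted p under 0.05. DESeq2 called Oog4 (adjusted p = 0.0273) among 9.05% of genes. limma-voom called Oog2 (adjusted p = 0.0244), Oog3 (adjusted p = 0.0274) and Oog4 (adjusted p = 0.00485) among 50.8%. Without Ctrl 2-cell replicate 6, edgeR called Oog4 (adjusted p = 0.047) among 11.6% of genes, and Oog4 lay between 1.76 (without Ctrl 2-cell replicate 1) and 2.73 log2 units when each library was left out. KRAB against Ctrl and Ctrl against NI share the Ctrl libraries, so a high Ctrl mean enters both.

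The Ctrl 2-cell libraries differed widely in Oog4. Replicates 2, 4 and 6 had 31.2, 25.2 and 27.5 CPM, inside the range of the KRAB libraries, and replicates 1, 3, 5 and 7 had 540.0, 176.4, 225.9 and 280.0 CPM, above all KRAB and NI libraries. Depth moved with part of this. Total counts had a median of 2636352.5 in KRAB, 7176488 in Ctrl and 2344780.5 in NI. The shallowest Ctrl libraries were replicates 4 and 6, with 1543640 and 1043740 counts, but replicate 2, also low, had 7176488. Within KRAB the deepest library, replicate 3 with 4336022 counts, had the lowest Oog2, Oog3 and Oog4. Summed oocyte markers had a median of 19660 CPM in KRAB, 12700 CPM in Ctrl and 14570 CPM in NI. Gene by gene, 5 of these 10 markers had negative and 5 positive changes in KRAB against Ctrl, with a median of -0.33. Of 6 tested oocyte transcription factors, 5 had negative changes there, with a median of -1.48 beside -0.13 over all genes. In Ctrl against NI 5 of the 6 had positive changes, with a median of 1.81 beside 0.07. None of these genes was called. The part of depth in the result was not tested.

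Pramel6 and Pramel7 overlapped among the 2-cell groups. Pramel6 averaged 34.9 ± 16.4 CPM in KRAB, 38.8 ± 36.6 CPM in Ctrl and 49.9 ± 53.1 CPM in NI, and Pramel7 averaged 58.5 ± 27.3, 66.0 ± 76.6 and 111 ± 129 CPM. The fold changes of KRAB against Ctrl were close to 0, with 95% intervals from -1.506 to 1.499 for Pramel6 and from -2.04 to 1.91 for Pramel7. Against NI, Pramel6 was at -0.41 ± 0.83 in KRAB and -0.41 ± 0.80 in Ctrl, and Pramel7 at -0.83 ± 1.08 and -0.77 ± 1.04. None of these values was called, and their intervals leave room for changes of several-fold.

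At the 8-cell stage, embryos labelled VP64 were compared with Ctrl and NI embryos. The filter on low counts left Oog3, Pramel6 and Pramel7 in the test and removed Oog2 and Oog4. Oog3 averaged 7.53 ± 3.55 CPM in VP64, 6.80 ± 4.43 CPM in Ctrl and 6.77 ± 3.81 CPM in NI, and its log2 fold change of VP64 against Ctrl was 0.10 ± 0.48 (95% interval -0.90 to 1.09, adjusted p = 0.999). Pramel6 averaged 214 ± 76.1 CPM in VP64, 325 ± 120 CPM in Ctrl and 310 ± 154 CPM in NI. It had the largest difference of the 3, -0.61 ± 0.34 against Ctrl (unadjusted p = 0.0826, adjusted p = 0.999) and -0.52 ± 0.34 against NI (adjusted p = 0.848). Pramel7 averaged 296 ± 154, 310 ± 168 and 305 ± 248 CPM, with changes of -0.07 ± 0.48 against Ctrl and -0.02 ± 0.48 against NI.

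No gene of 9850 was called by edgeR in VP64 against Ctrl, VP64 against NI or Ctrl against NI (0% in each), with 393, 706 and 429 genes at an unadjusted p under 0.05. DESeq2 called 1, 18 and 1 genes and limma-voom 0, 14 and 0, none of them a member. Between Ctrl and NI the 3 members differed by 0.05 to 0.09 log2 units. Read counts of the 2 removed genes were small. Oog4 had 47 counts over the 7 VP64 libraries, 7 over the 6 Ctrl libraries and 28 over the 6 NI libraries, and with no filter its change of VP64 against Ctrl was 2.11 (unadjusted p = 0.0421, adjusted p = 0.613). Oog2 had a change of 0.45 against Ctrl (adjusted p = 0.979) and 1.67 against NI (adjusted p = 0.562) in the same fit.

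Some members also varied together among libraries of 1 group. Deviations from the group means of log2(CPM + 1) were correlated over the 17 2-cell and the 19 8-cell libraries, 20 pairs in all, with a permutation test within groups (100000 permutations, two-sided) and Benjamini-Hochberg adjustment over the 20. In 2-cell embryos Oog2 and Oog4 moved closely together, with Pearson's r = 0.946 and Spearman's rho = 0.934 (permutation p = 1e-05 for each, the smallest the permutations can give, adjusted 0.0001), and r = 0.927 without the 2 most extreme libraries. Oog3 followed less tightly, with r = 0.728 to Oog2 (permutation p = 0.00126, adjusted 0.00504; rho = 0.551, adjusted 0.14) and 0.753 to Oog4 (permutation p = 0.00117, adjusted 0.00504; rho = 0.635, adjusted 0.0795). Pramel6 and Pramel7 varied together at both stages, with r = 0.888 in 8-cell libraries (rho = 0.902, adjusted permutation p = 0.0001 for both) and r = 0.922 in 2-cell libraries (rho = 0.912, adjusted permutation p = 0.000133 and 0.000733). The oogenesin pairs showed no such relation in 8-cell libraries, where Oog2 and Oog4 had few counts. There r was 0.255 for Oog2 and Oog3, -0.354 for Oog2 and Oog4, and 0.004 for Oog3 and Oog4 (adjusted permutation p = 0.68, 0.42 and 0.986). Between an oogenesin and a Pramel gene, r ran from -0.14 to 0.132 in 2-cell embryos. At the 8-cell stage, where Oog4 had few counts, its r with Pramel7 was 0.597 (adjusted permutation p = 0.0357; rho = 0.547, adjusted 0.0944) and 0.437 without the 2 extreme libraries. The libraries of a stage share scaling and differ in depth, which enters each of these values.

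**Figure D3:**
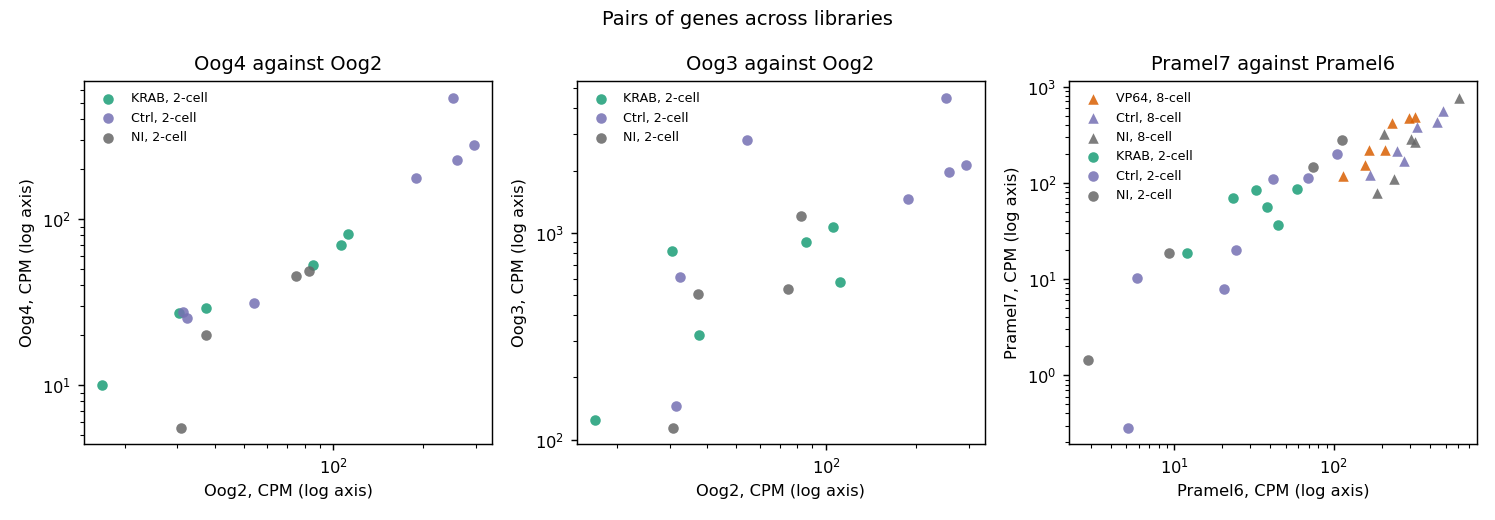
CPM of 1 gene against another on log axes, 1 point per library, coloured by group, with 8-cell libraries as triangles and 2-cell libraries as circles. Oog4 follows Oog2 closely among 2-cell libraries (r = 0.946 of group deviations), Oog3 follows it more loosely (r = 0.728), and Pramel7 follows Pramel6 at both stages.

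The ratio of Pramel7 to Pramel6 had a median of 1.31 in VP64, 0.914 in Ctrl and 0.885 in NI 8-cell libraries, and of 1.502 in KRAB, 1.63 in Ctrl and 1.99 in NI 2-cell libraries. In the 2-cell Ctrl libraries it ran from 0.0556 to 2.66.

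The genes whose pattern over all 36 libraries was most like each member, by Pearson's r of log2(CPM + 1) among 8948 genes, were for Oog2 Fbxw26 (r = 0.973), an F-box protein gene, Nlrp9c (0.971), of the oocyte NLRP family, and Brdt (0.969), a bromodomain protein of germ cells. For Oog3 they were Pak7 (0.984), a p21-activated kinase, Unc13c (0.9752), which encodes a presynaptic release factor, and Hmgcll1 (0.9751), a lyase of ketone body synthesis. For Oog4 they were Dnajb4 (0.984), a heat shock cochaperone, Eya1 (0.978), a transcriptional coactivator and phosphatase, and Nsun4 (0.973), a mitochondrial RNA methyltransferase. For Pramel6 they were Impdh2 (0.960), the rate-limiting enzyme of guanine nucleotide synthesis, Psmd13 (0.958), a proteasome subunit, and Trim43a (0.957). For Pramel7 they were Slc1a1 (0.945), a glutamate transporter, Eif1a (0.933), a translation initiation factor, and Zc3hc1 (0.932). Eif1a was on the list of 2-cell markers but was higher at the 8-cell stage here. Its group means were 286.6 to 317.8 CPM in 8-cell and 59.4 to 110.1 CPM in 2-cell libraries. The difference between the stages dominates each r, which is given as a description.

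Beyond the members, 30 other rows belonged to the PRAME family, of which 28 passed the filter over all libraries. At the 8-cell stage 20 had fallen in NI and 22 in Ctrl, 2 and 3 had risen, and 6 and 3 were not called. Of all genes tested, 31.4% were called lower in NI and 39% in Ctrl, and 18.5% and 22.5% higher. The 4 most abundant of these 30, among which Gm2042 with its higher mean was not counted, went both ways. Gm10436 (Pramel51), on chromosome 12, fell (log2 fold change -5.74 in NI and -6.99 in Ctrl), and Gm13023 (Pramel25) of the chromosome 4 cluster fell too (-6.25 and -7.76). Pramel4, also of that cluster, rose by 2.24 ± 0.75 in NI (adjusted p = 0.0121) and 2.79 ± 0.62 in Ctrl (adjusted p = 0.000182). Gm3139 (Pramel42), on chromosome 5, rose in Ctrl (2.47 ± 0.80, adjusted p = 0.00774) and had 1.54 ± 0.95 in NI (adjusted p = 0.175).

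The cluster of chromosome 4 spans 1014 kb and holds 21 family rows, members included, of which 20 were tested. Oog2, Oog3 and Oog4 were among 15 that fell in NI and 16 in Ctrl (31.4% and 39% of all genes were called lower). Of the 2 that rose in both, Pramel4 is the next row to Oog3 on the side of Oog4, and Pramel5, named after its values were seen, lies beyond Oog2 (3.10 ± 0.81 in NI and 3.59 ± 0.66 in Ctrl). Pramel4 had a median of 594.7 CPM in VP64, 1115 CPM in Ctrl and 841.7 CPM in NI 8-cell embryos, and of 130.9 CPM in KRAB, 137.4 CPM in Ctrl and 173.2 CPM in NI 2-cell embryos. Genes that rose therefore stood between genes that fell. Of the 23 tested family rows with a RefSeq promoter, 3 had CAGCTG starting between -60 and -20, and 2 of these fell in NI and 3 in Ctrl. Of the 20 without it, 15 fell and 2 rose in each. Among all genes 31.4% were called lower in NI and 39% in Ctrl, and 18.5% and 22.5% higher. Rows of this family share sequence, so reads may be divided between them.

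**Figure D4:**
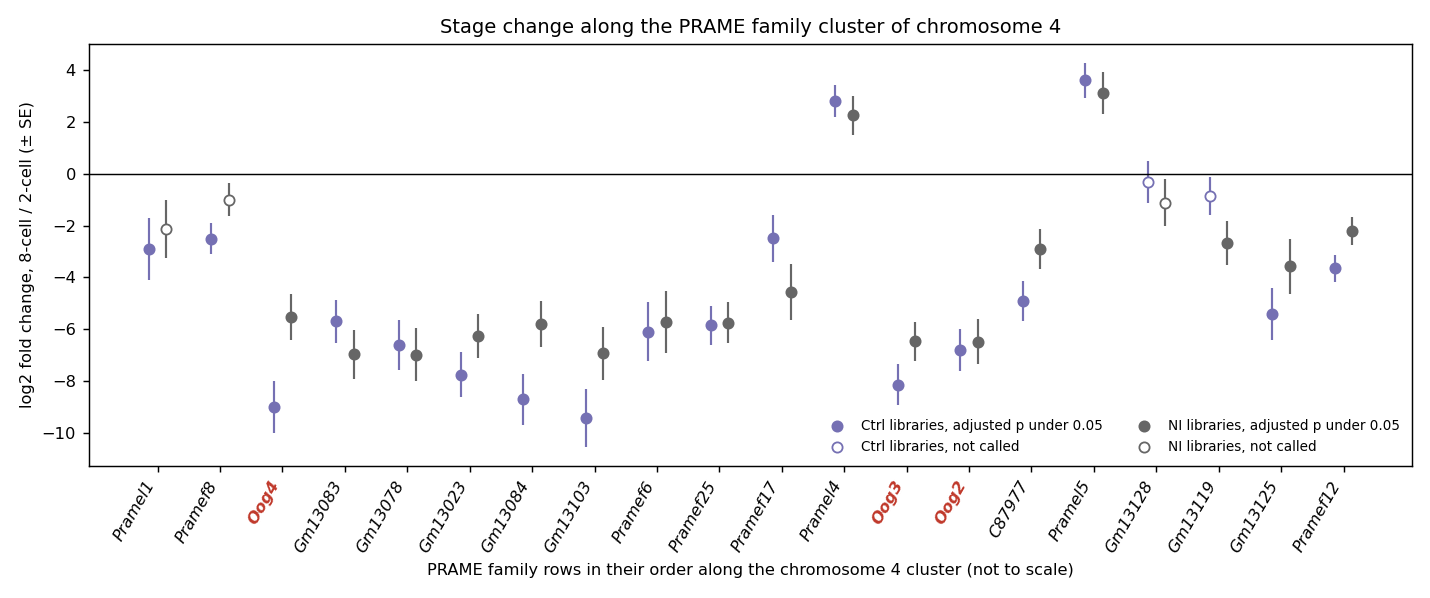
The log2 fold change of 8-cell against 2-cell embryos (± SE) for the 20 tested PRAME family rows, in their order along the chromosome 4 cluster, with the oogenesins in red bold. Most rows fell in both groups, and Pramel4 and Pramel5 rose among them.

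KRAB against Ctrl left none of 27 tested family rows called, with 20 negative and 7 positive log2 fold changes. Set against NI, the same rows had 8 negative and 19 positive changes in KRAB, and 10 negative and 17 positive in Ctrl, with none called. The family median was -0.59 in KRAB against Ctrl, 0.20 in KRAB against NI and 0.60 in Ctrl against NI. Over all genes the medians were -0.13, -0.02 and 0.07. Of the 1838 genes at an unadjusted p under 0.05 (edgeR) in KRAB against Ctrl, 1382 were lower. In Ctrl against NI 1743 of 2756 such genes were higher, and in KRAB against NI 137 of 368. Oog1 itself has 93.41% of its 31-base words in other transcripts, chiefly Gm2042 (90.17% of the smaller set) and Gm10436 (72.06%). Gm2042, which was named after its values were seen, averaged 34.1 ± 13.8 CPM in VP64, 30.4 ± 18.6 CPM in Ctrl and 28.6 ± 9.62 CPM in NI 8-cell embryos, and 1714 ± 1045 CPM in KRAB, 2698 ± 1813 CPM in Ctrl and 1104 ± 580 CPM in NI 2-cell embryos. Its log2 fold change between the stages was -5.28 ± 0.64 in NI and -6.48 ± 0.65 in Ctrl. The corresponding shared percentages of words were 42.99 for Oog2, 26.92 for Oog3, 8.64 for Pramel7, 2.22 for Oog4 and 0.62 for Pramel6, so the levels of Oog2 and Oog3 are the least certain of the 5.

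Genes around the known partners of these proteins were followed through the same contrast. Of 11 tested genes of the Ral GTPase pathway, 5 fell in NI and 6 in Ctrl while 0 rose, with a median of -1.77 and -1.62 (31.4% and 39% of all genes were called lower). Rgl2, an exchange factor related to RALGDS, fell (-2.91 in NI and -4.88 in Ctrl). Ralgds itself was at -1.11 ± 0.58 in NI (adjusted p = 0.109) and fell in Ctrl (-1.62, adjusted p = 0.00651).

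Of 11 genes of the PRAMEL7 ubiquitin ligase and of DNA methylation, 2 rose and 4 fell in each group, with a median of -0.37 in NI and -0.73 in Ctrl. These counts are near the shares of all genes called higher (18.5% in NI and 22.5% in Ctrl) and lower (31.4% and 39%). Uhrf1 had the smallest p, at -3.22 ± 0.60 in NI (adjusted p = 3.61e-05) and -4.98 ± 0.61 in Ctrl (adjusted p = 1.27e-08). Dnmt1 also fell in both, at -1.09 ± 0.46 in NI (adjusted p = 0.0446) and -1.85 ± 0.42 in Ctrl (adjusted p = 0.000224). So did Dnmt3a, at -1.01 ± 0.43 in NI (adjusted p = 0.0481) and -1.89 ± 0.39 in Ctrl (adjusted p = 7.98e-05). Cul2, the scaffold of the ligase, rose by 2.72 ± 0.72 in NI (adjusted p = 0.00203) and was at 0.79 ± 0.55 in Ctrl (adjusted p = 0.212). Tceb1, which encodes elongin C of the same ligase, rose by 2.58 ± 0.59 in Ctrl (adjusted p = 0.000284) and was at 0.87 ± 0.68 in NI (adjusted p = 0.287).

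Of 11 genes of the LIF and STAT3 pathway, 3 rose in each group, 6 fell in NI and 5 fell in Ctrl, with a median of -1.55 in NI and 0.33 in Ctrl, beside the same shares of all genes. Jak2, a kinase of the receptor, fell (-4.18 in NI and -3.30 in Ctrl), and so did Stat3 (-2.79 and -4.22). Klf5, a transcription factor of the early embryo, rose by 3.85 ± 0.92 in NI and 3.22 ± 0.71 in Ctrl. Of 7 oocyte transcription factors, 5 fell in each group, and 1, in Ctrl, rose, with a median of -3.15 and -6.80. Among all genes 31.4% were called lower in NI and 39% in Ctrl, and 18.5% and 22.5% higher. Nobox fell (-4.54 in NI and -8.46 in Ctrl), and Lhx8, a LIM homeodomain factor of the oocyte, fell as well (-5.92 and -8.50). In KRAB against Ctrl embryos none of the genes of these lists was called, where Uhrf1 had -1.59 ± 0.54 (adjusted p = 0.232), Jak2 0.26 ± 0.38 and Nobox -1.59 ± 0.83.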

How the data were processed

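RNA of 36 pools of embryos was sequenced after SMART-seq v4 cDNA synthesis, per the labels' protocols. The deposited values are estimated counts, expected counts per gene symbol that need not be whole, which the authors made with RSEM (the submitters' processing notes also name Bowtie2 and mm10). The sources used here give neither versions nor the annotation. RSEM divides reads that match several genes, so rows of near-identical genes are uncertain. Columns not used numbered 0.

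Counts were rounded and tested with edgeR 4.0.16 (limma 3.58.1, R 4.3.3): TMM scaling, filterByExpr (min.count 10, min.total.count 15), the robust quasi-likelihood test, and Benjamini-Hochberg adjustment over all genes with a threshold of 0.05. Comparisons within a stage used all libraries of that stage (9850 genes for 8-cell and 11799 for 2-cell libraries), and those between stages all 36 libraries (13158 genes). The code was tested on simulated data first. Alternatives were DESeq2 1.42.0, its size factors in edgeR, limma-voom with quality weights, no filter, and the compared groups alone. Others summed rows sharing over 10% of the 31-base words of the smaller set, or left out each library in turn. The 93 pairs of libraries of 1 group differed by a chi-square per degree of freedom of at least 6.92. Replicate numbers are in accession order and pair nothing. Limits set by a count of 0 cover counting error only.

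Gene positions and shared words come from GENCODE vM21, and promoters from RefSeq. All 6 members had a promoter there. Identity was computed over bases aligned globally (Biopython 1.88). The rule for names took all members, from each pathway list up to 4 genes that passed with the smallest p, the 4 most abundant other family rows, and the 3 genes most alike to each member. One gene that the rule named is not reported here. Members and lists were chosen with earlier results of these data known, and the CAGCTG search and the split of the promoters by it were chosen after the sequences were seen.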

Additional observations from a re-analysis of the deposited data

Results flagged for a closer look

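One of the 30 combinations of a member and a group, Oog2 in NI 8-cell embryos, held a library far from the others. Its replicate 3 had 1.984 CPM while the nearest of the other 5 libraries had 0.461 CPM, and on the log2(CPM + 1) scale the gap between them was 0.653 of the range of the group. Chance gives such a flag in about 1 of 20 groups. The value rests on 10 reads, and without that library the log2 fold change of Oog2 in NI was -7.26.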

How the results depend on the processing

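The stage calls of Oog2, Oog3, Oog4 and Pramel6 in NI and of all 5 members in Ctrl kept their direction and stayed under the threshold in every alternative run and in every fit that left out 1 library. Over all comparisons, 184 of 201 member values kept their direction and side of the threshold under the alternatives, and 460 of 514 did when a library was left out. No paired analysis was possible because the replicate numbers only follow accession order. The size factors of DESeq2 shifted the median of all genes by -0.25 between the stages in NI and by -0.19 in Ctrl, small beside the members' changes.

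Counts of called members that moved were 2 in KRAB against Ctrl (limma-voom), 1 (DESeq2) and 3 (limma-voom) in Ctrl against NI at the 2-cell stage, 2 (limma-voom) in the difference of stage changes, and 0 to 1 in Ctrl against NI at the 2-cell stage with 1 library left out. The cause was not tested. Libraries that moved a called stage fold by over 1.5 times were NI 8-cell replicate 3 for Oog2 (-7.26) and replicate 4 for Oog4 (-6.70), NI 2-cell replicate 4 for Pramel6 (3.30), and Ctrl 8-cell replicate 3 for Oog2 (-7.52) and replicates 1 and 4 for Oog4 (-9.60 and -9.65). Among the alternatives, limma-voom did so in Ctrl for Oog2 (-7.86), Pramel6 (4.07) and Pramel7 (4.14), and summing Oog2 with Gm13084 gave -7.92.

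Signs turned only for values that were not called. In KRAB against Ctrl, Pramel6 was 0.04 with DESeq2 (0.0417) and its size factors (0.0397), 0.85 with limma-voom and 0.0253 with the compared groups alone, and Pramel7 was 1.83 with limma-voom. With limma-voom Oog3 was -0.42 in Ctrl against NI and -0.0924 in VP64 against NI at the 8-cell stage, and Pramel7 in VP64 against NI was 0.02 with DESeq2 (0.0153) and its size factors (0.0151). With 1 library left out, the ranges in KRAB against Ctrl were -0.26 to 0.59 (Pramel6) and -0.27 to 0.64 (Pramel7). In Ctrl against NI at the 2-cell stage they were -1.03 to 0.32 (Pramel6) and -1.51 to 0.16 (Pramel7). In KRAB against NI they were -0.0472 to 0.36 (Oog2), -0.26 to 0.64 (Oog3), -0.85 to 0.31 (Pramel6) and -1.31 to 0.10 (Pramel7). At the 8-cell stage they were -0.10 to 0.56 (Oog3) and -0.23 to 0.16 (Pramel7) in VP64 against Ctrl, -0.026 to 0.39 and -0.19 to 0.48 in VP64 against NI, and -0.39 to 0.29 (Oog3), -0.05 to 0.39 (Pramel6) and -0.19 to 0.56 (Pramel7) in Ctrl against NI. In the difference of stage changes they were -1.05 to 0.61 (Oog2), -0.32 to 0.91 (Pramel6) and -0.21 to 1.34 (Pramel7). The 95% interval of a gene reached, at the median, 1.22 log2 units to each side in KRAB against Ctrl and 1.01 in VP64 against Ctrl.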
